A study of Mus musculus with 12 samples.

Results

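The insulin receptor signalling genes described here are 10 genes chosen by symbol from the 22276 symbols with deposited expression values. They are the receptor genes Insr and Igf1r, the receptor substrate genes Irs1 and Irs2, the inhibitory adaptor gene Grb14, the phosphoinositide 3-kinase (PI3K) subunit gene Pik3r1, the kinase genes Akt1 and Akt2, and the transcription factor genes Foxo1 and Foxo3. Their mRNA levels were measured by RNA-seq in liver, quadriceps muscle and the white (WAT) and brown (BAT) adipose tissue of male C57BL/6J mice aged 17 wk. The NCD-veh mice ate a normal chow diet (NCD) and received vehicle (veh). The HFD-veh mice ate a high fat diet (HFD) from 8 wk of age and received vehicle, and the HFD-ncls mice ate the same HFD and received narciclasine (ncls), a plant alkaloid. Ncls at 1 mg/kg or vehicle was given by oral gavage once a week from 10 wk of age. Each organ of each group was represented by 1 library, 12 libraries in all. The depot of the WAT and the number of mice behind a library are not given in the sources used here, so the libraries carry no estimate of the spread between mice.

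Insulin binds the insulin receptor, a tyrosine kinase at the cell surface that phosphorylates the insulin receptor substrate proteins. These recruit PI3K, whose lipid product activates AKT kinases, and AKT phosphorylates FOXO transcription factors and thereby keeps them out of the nucleus. In fat and muscle the cascade drives glucose uptake, and in liver it restrains glucose output and favours lipid synthesis. Most of its control acts on proteins by phosphorylation, which mRNA levels do not measure.

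Expression is given as FPKM, sequenced fragments scaled to transcript length and to the library's total, so levels can be compared between genes. The libraries held about 1.83e+07 to 2.57e+07 fragments, estimated from the smallest FPKM values. At this depth each gene was covered by about 140 fragments or more in every library, except for Igf1r (about 16 at the lowest in liver, 130 in HFD-veh BAT and 120 in HFD-veh muscle) and Foxo3 in BAT (about 76 at the lowest). The counting error was at most 25.2% for Igf1r, 11.5% for Foxo3 and 8.43% for the other genes. The fragments per gene rest on GENCODE vM1 transcript lengths, which only approximate those behind the FPKM values. An FPKM of at least 1 in all 12 libraries was reached by 8 of the 10 genes.

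The organ labels were compared with marker genes. The summed FPKM of liver markers was 49337 to 56064 in liver, that of skeletal muscle markers 94479 to 99677 in muscle, that of adipocyte markers 18492 to 28581 in WAT and that of brown adipocyte markers 4051 to 4516 in BAT. Markers of another organ were also found in some libraries. All 10 liver markers reached at least 1 FPKM in HFD-veh muscle, with a sum of 560 FPKM, against 2.01 (NCD-veh) and 0.762 (HFD-ncls). The share of liver RNA in HFD-veh muscle, as the median over 584 liver-enriched genes, was 0.567%. Liver markers summed to 7.26, 58.5 and 220 FPKM in the 3 WAT libraries (NCD-veh, then HFD-veh, then HFD-ncls). The share of liver RNA in HFD-ncls WAT was 0.219% above that of HFD-veh WAT. In HFD-veh liver the share of muscle RNA was 0.0520%. Skeletal muscle markers summed to 2093, 865 and 124 FPKM in the 3 BAT libraries (NCD-veh, then HFD-veh, then HFD-ncls), and the share of muscle RNA in HFD-veh BAT was 0.688% above that of HFD-ncls BAT. Red blood cell markers summed to 69.3 FPKM (muscle) to 585 FPKM (WAT). Of the HFD-veh muscle level of the 10 genes, the liver share accounted for 0.0915% (Igf1r) to 2.24% (Pik3r1). In HFD-veh BAT, HFD-ncls WAT and HFD-veh liver, the corresponding share of a gene's level was at most 2.74% (Irs1 in HFD-veh BAT). The share was not computed for HFD-veh WAT or for NCD-veh BAT, which had the highest muscle marker sum of the BAT libraries.

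All 10 genes are protein-coding in the GENCODE annotation of mm9. Insr lies on chromosome 8 (3150922 to 3279617) and Igf1r on chromosome 7 (75097713 to 75371484). Irs1 lies on chromosome 1 (82229676 to 82287991), Irs2 on chromosome 8 (10986980 to 11008458) and Grb14 on chromosome 2 (64750533 to 64863044). Pik3r1 lies on chromosome 13 (102450716 to 102538172), Akt1 on chromosome 12 (113892032 to 113913095) and Akt2 on chromosome 7 (28376571 to 28425845). Foxo1 lies on chromosome 3 (52072259 to 52154031) and Foxo3 on chromosome 10 (41901647 to 41996561).

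Promoter sequence from RefSeq (GRCm38.p6) was matched to 9 of the 10 genes, all but Insr. The 250 bases before each transcription start were searched on both strands for CACGTG, the E-box bound by basic helix-loop-helix factors, and for TGTTTTG and TATTTTG, forms of the insulin response element, and for TGTTTAC, a FOXO motif. Irs1 and Irs2 both held CACGTG, which 6.02% of 32851 promoters held, and TGTTTTG, which 5.56% held. In both genes TGTTTTG lay within 10 bases after CACGTG, a pair found in 9 of the 32851 promoters (0.0274%), and the third substrate gene with this pair was Irs4. The pair was chosen for description after the sequences had been seen. The 3 sequences are shown because the substrate genes share this element, each as the 250 bases before the start, 5′ to 3′ on the strand of the gene, which is the minus strand in all 3. Capitals mark CACGTG and TGTTTTG.
Irs1, chr1:82291440-82291689: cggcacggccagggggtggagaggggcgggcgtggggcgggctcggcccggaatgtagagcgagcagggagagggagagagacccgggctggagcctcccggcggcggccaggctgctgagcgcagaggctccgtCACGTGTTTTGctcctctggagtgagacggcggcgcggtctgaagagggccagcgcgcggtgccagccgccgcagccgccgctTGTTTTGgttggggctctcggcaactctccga
Irs2, chr8:11008930-11009179: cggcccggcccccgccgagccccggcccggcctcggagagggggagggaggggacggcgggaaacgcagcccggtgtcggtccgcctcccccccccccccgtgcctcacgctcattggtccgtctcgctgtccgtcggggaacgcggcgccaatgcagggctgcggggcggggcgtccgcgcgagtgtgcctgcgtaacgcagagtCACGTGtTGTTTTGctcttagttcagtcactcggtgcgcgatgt
Irs4, chrX:141725218-141725467: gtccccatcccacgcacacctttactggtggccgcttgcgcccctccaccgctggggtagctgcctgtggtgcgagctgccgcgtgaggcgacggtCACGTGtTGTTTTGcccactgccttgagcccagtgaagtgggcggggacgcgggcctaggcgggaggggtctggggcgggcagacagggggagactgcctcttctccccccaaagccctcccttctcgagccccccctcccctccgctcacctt
In Irs1 the first CACGTG base lay 115 bases before the start, its last letters overlapped TGTTTTG, and a second TGTTTTG began 32 bases before the start. In Irs2 the pair began 44 bases and in Irs4 154 bases before the start. TGTTTAC was found in Akt1 (161 bases before the start) and in 3.17% of all promoters, and TATTTTG in Pik3r1 (151 bases before the start) and in 3.95% of all promoters. A match describes the letters in this window and is not a measured binding site. Among these 3 genes, Irs1 and Irs2 had different organ patterns, and Irs4 was listed at 0 FPKM in all 12 libraries.

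The first comparison asked in which organ each gene was most expressed. In bulk tissue, fewer cells of a type and less RNA per cell cannot be told apart. The 3 libraries of an organ differ in diet and drug, so their spread (SD, n = 3) holds those differences, and p-values measure the spread between libraries only. Organs were compared on log2(FPKM + 0.1) with limma, with the group as a second term and Benjamini-Hochberg adjustment over 13648 genes. All 10 genes differed between organs, with adjusted p from 5.90e-07 (Akt2) to 0.000271 (Insr). This is not particular to them, since 97.9% of all genes tested did. WAT had the highest mean FPKM for 9 of the 10 genes, but this order depends on the scaling. The same count was not made for all genes. When the libraries were rescaled so that the median gene was level across organs, WAT moved down by 0.59 on the log2 scale while BAT, liver and muscle moved up by 0.17 to 0.28, and WAT remained the highest organ for Irs2, Pik3r1, Akt1, Foxo1 and Foxo3 only. The lowest organ was the same for all 10 genes under both scalings. Of 60 differences between 2 organs (6 for each gene), 45 passed an adjusted p of 0.05 as deposited. After rescaling, 35 of these kept their direction and passed. The counts after rescaling were likewise not made for all genes. The genes that passed were 8 of 10 for BAT against WAT (78.5% of all genes), 9 for liver against WAT (82.3%), 8 for muscle against WAT (82.8%), 5 for liver against BAT (66.8%), 7 for muscle against BAT (68.2%) and 8 for muscle against liver (74.7%).

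**Figure D1:**
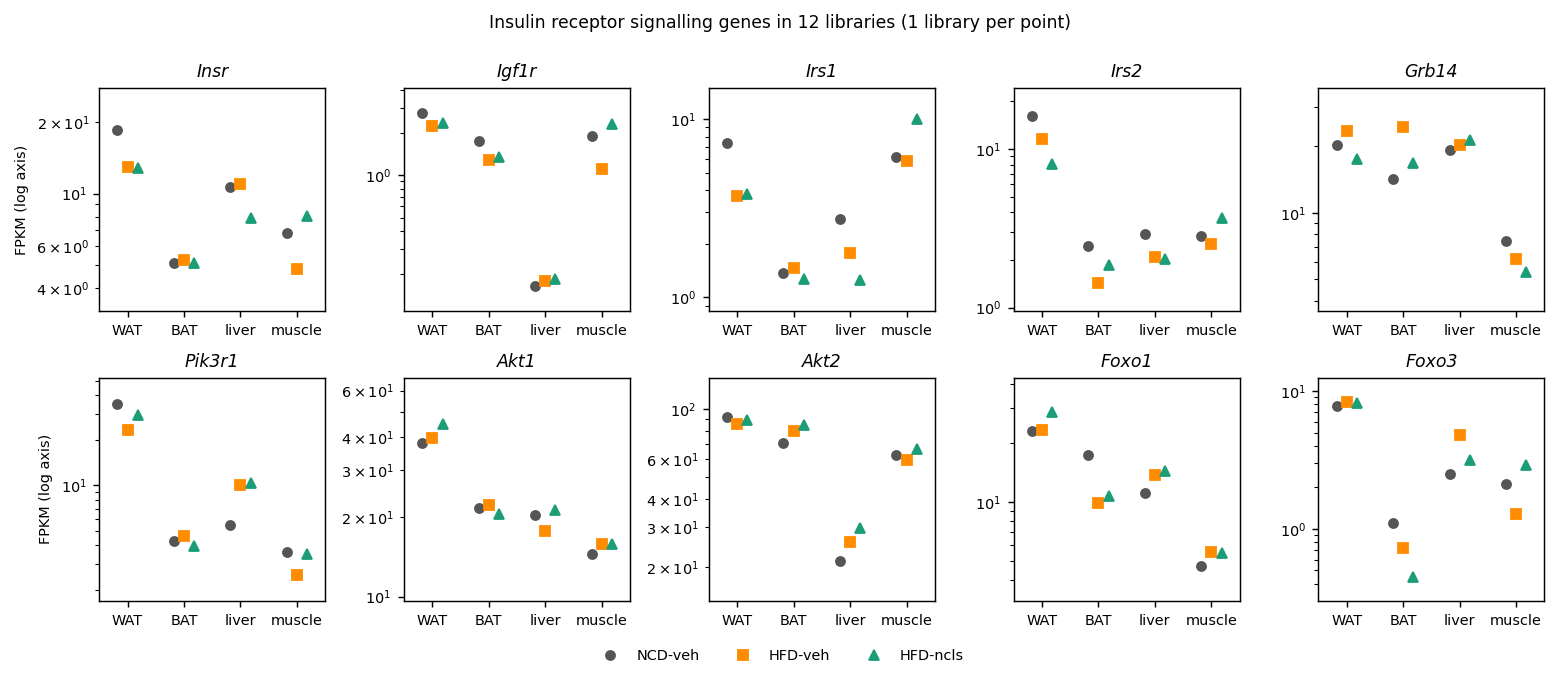
FPKM (log axis) of the 10 genes in the 4 organs, 1 point per library, with grey circles for NCD-veh, orange squares for HFD-veh and green triangles for HFD-ncls. Igf1r in liver (0.163 to 0.183 FPKM) lies far below the other organs, Foxo3 in BAT (0.451 to 1.11 FPKM) lies just below muscle (1.28 FPKM at the lowest), and Akt2 is lowest in liver (21.2 to 29.7 FPKM).

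The 2 receptor genes had different organ patterns. Insr, which encodes the insulin receptor, was at 18.5, 13.0 and 12.8 FPKM in WAT (NCD-veh, HFD-veh and HFD-ncls, the order used throughout), 10.6, 11.01 and 7.86 in liver, 6.82, 4.80 and 8.07 in muscle and 5.13, 5.25 and 5.09 in BAT. WAT was above all other libraries as deposited, and the muscle libraries overlapped those of liver and BAT. Insr was 0.90 higher in liver than in BAT on the log2 scale (SE 0.21, adjusted p = 0.00345), a difference that passed under both scalings. Against WAT, liver was 0.58 lower as deposited (adjusted p = 0.0257) and 0.21 higher after rescaling (adjusted p = 0.387).

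Igf1r, which encodes the receptor of insulin-like growth factor 1, was at 2.75, 2.21 and 2.33 FPKM in WAT, 1.89, 1.09 and 2.31 in muscle, 1.74, 1.27 and 1.34 in BAT and 0.163, 0.177 and 0.183 in liver. Liver was below every other library, and the muscle range overlapped those of WAT and BAT. The mean in liver was 0.174 ± 0.0103 (SD, n = 3) against 1.45 ± 0.256 in BAT, and the log2 difference of liver from BAT was -2.49 (SE 0.22, adjusted p = 7.62e-06). The share of Insr in the sum of both receptor genes, which does not depend on the scaling between libraries, was 97.7% to 98.5% in liver, 84.7% to 87.1% in WAT, 77.8% to 81.4% in muscle and 74.6% to 80.6% in BAT. Insr mRNA was thus the more abundant in all 12 libraries.

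The substrate genes encode the docking proteins that couple the receptor to PI3K. Irs1 was at 6.16, 5.83 and 9.99 FPKM in muscle, 7.34, 3.70 and 3.82 in WAT, 2.77, 1.78 and 1.25 in liver and 1.37, 1.46 and 1.27 in BAT. Muscle had the highest mean, and its range overlapped that of WAT. The log2 difference of muscle from liver was 1.89 (SE 0.31, adjusted p = 0.000368) and that from BAT was 2.30 (SE 0.31, adjusted p = 0.000127). Irs2 was at 16.2, 11.5 and 8.08 FPKM in WAT, 2.83, 2.53 and 3.69 in muscle, 2.90, 2.09 and 2.01 in liver and 2.47, 1.42 and 1.85 in BAT. WAT was above all other libraries, while the liver range overlapped those of muscle and BAT. The log2 difference of liver from WAT was -2.27 (SE 0.23, adjusted p = 1.06e-05) as deposited and -1.49 after rescaling.

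Of the sum of Irs1 and Irs2, Irs1 made up 68.5% to 73.0% in muscle and 24.3% to 32.1% in WAT, so Irs1 exceeded Irs2 in muscle and Irs2 exceeded Irs1 in WAT. In liver the share of Irs1 was 38.4% to 48.8% and in BAT 35.8% to 50.7%. A further substrate gene, Irs3, was at 21.4, 21.2 and 22.9 FPKM in WAT and 10.3, 13.7 and 12.8 in BAT, above both Irs1 and Irs2 in each of these 6 libraries. It was at most 0.345 FPKM in muscle and 0.0733 in liver. Irs3 was named after its values had been seen.

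Grb14 encodes an adaptor that binds the activated insulin receptor and inhibits its kinase. It was at 20.3, 23.4 and 17.5 FPKM in WAT, 19.2, 20.3 and 21.4 in liver, 14.1, 24.4 and 16.8 in BAT and 7.46, 6.15 and 5.38 in muscle. The libraries of WAT, liver and BAT overlapped, and muscle was below all of them. The log2 difference of muscle from liver was -1.68 (SE 0.18, adjusted p = 1.99e-05), and muscle was also lower than WAT and BAT under both scalings. Its level was above that of Insr in all libraries but HFD-ncls muscle, where Insr was at 8.07 and Grb14 at 5.38 FPKM.

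Pik3r1 encodes the p85α regulatory subunit, which ties the catalytic subunit of PI3K to the substrate proteins. It was at 34.8, 23.5 and 29.3 FPKM in WAT, 5.49, 10.1 and 10.3 in liver, 4.30, 4.63 and 3.93 in BAT and 3.58, 2.55 and 3.49 in muscle. No library of one organ overlapped those of another. The mean in WAT was 9.10 times that in muscle, and the log2 difference of muscle from WAT was -3.14 (SE 0.26, adjusted p = 1.99e-06) as deposited and -2.28 after rescaling. The difference of muscle from BAT (-0.42, adjusted p = 0.176) did not pass.

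The AKT kinases carry the signal from PI3K to glucose uptake, glycogen synthesis and the FOXO factors. Akt1 was at 38.2, 39.8 and 44.8 FPKM in WAT, 21.6, 22.1 and 20.5 in BAT, 20.3, 17.8 and 21.2 in liver and 14.4, 15.7 and 15.8 in muscle. Muscle was below all other libraries, and BAT and liver overlapped. Akt2, the form best known for insulin-stimulated glucose uptake, was at 91.9, 86.0 and 89.2 FPKM in WAT, 70.6, 80.3 and 84.8 in BAT, 62.6, 59.5 and 66.8 in muscle and 21.2, 25.8 and 29.7 in liver. It had the highest FPKM of the 10 genes in every library, and liver was below all others. The log2 difference of muscle from liver was 1.31 (SE 0.11, adjusted p = 3.12e-06). Akt2 made up 79.1% to 81.3% of the sum of both genes in muscle, 76.6% to 80.5% in BAT, 66.6% to 70.6% in WAT and 51.0% to 59.2% in liver. The direction between muscle and WAT turned with the scaling, from -0.50 as deposited (adjusted p = 0.00195) to 0.37 after rescaling (adjusted p = 0.0121).

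The FOXO genes encode transcription factors that AKT inhibits. Foxo1 was at 23.0, 23.3 and 28.7 FPKM in WAT, 11.1, 13.7 and 14.4 in liver, 17.2, 9.85 and 10.8 in BAT and 4.68, 5.51 and 5.50 in muscle. Muscle was below all other libraries, with a log2 difference from liver of -1.30 (SE 0.21, adjusted p = 0.000312). Foxo3 was at 7.75, 8.34 and 8.18 FPKM in WAT, 2.49, 4.78 and 3.15 in liver, 2.11, 1.28 and 2.89 in muscle and 1.11, 0.723 and 0.451 in BAT. BAT was below all other libraries, and liver and muscle overlapped. The log2 difference of liver from BAT was 2.08 (SE 0.37, adjusted p = 0.000768). Foxo1 made up 93.2% to 96.0% of the sum of both in BAT and 65.5% to 82.1% in the other 3 organs. A further FOXO gene, Foxo4, named after its values had been seen, was at 37.6, 41.9 and 45.9 FPKM in muscle, above Foxo1 and Foxo3 in these libraries. In BAT it was at 12.5, 14.2 and 12.7 FPKM, above Foxo1 in HFD-veh and HFD-ncls and below it in NCD-veh.

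**Figure D2:**
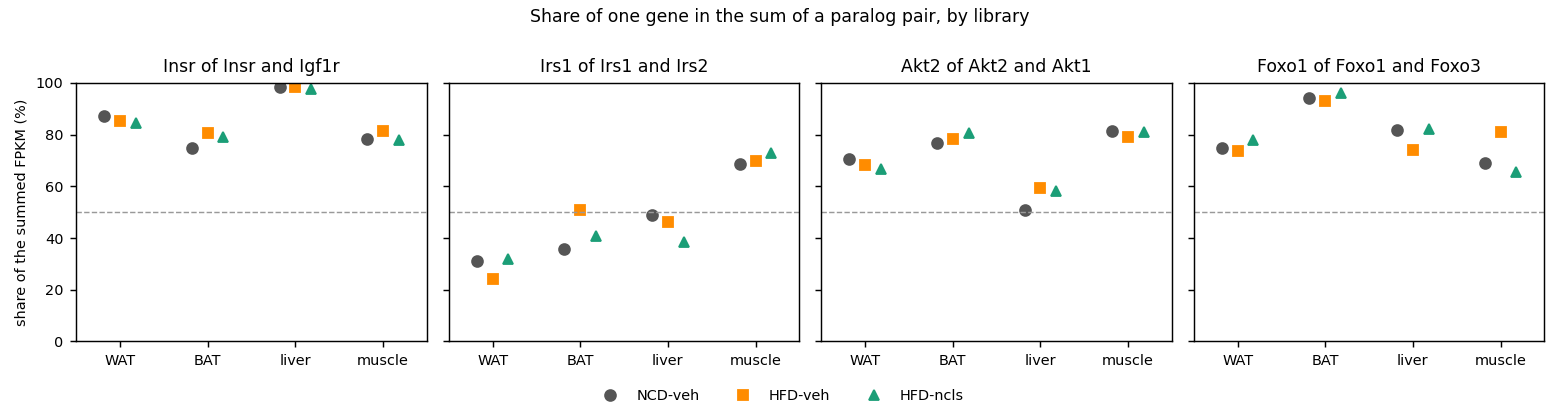
Share (%) of 1 gene in the summed FPKM of a pair of related genes, 1 point per library, with grey circles for NCD-veh, orange squares for HFD-veh and green triangles for HFD-ncls. The dashed line marks equal levels. Insr is at 97.7% or more in liver, Irs1 lies above 50% in the 3 muscle libraries (68.5% to 73.0%) and below it in the 3 WAT libraries (24.3% to 32.1%), and Akt2 is lowest in liver (51.0% to 59.2%).

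The second comparison asked how the genes differed between HFD-veh and NCD-veh mice within an organ. With 1 library on each side no test is possible. Genes are called higher or lower where log2(FPKM + 0.1) differed by over 1.4-fold (0.49 on the log2 scale), among genes that reached 1 FPKM in either library. No gene of the 10 differed by over 2-fold, as 9.11% of all genes did in WAT, 4.29% in BAT, 5.12% in liver and 4.11% in muscle.

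In WAT, 3 of the 10 genes were lower in HFD-veh than in NCD-veh mice, and no gene was higher. Of all WAT genes, 13.0% were lower and 16.3% higher by this measure. The 3 genes were Irs1 (7.34 against 3.70 FPKM, log2 difference -0.97), Pik3r1 (34.8 against 23.5, -0.57) and Insr (18.5 against 13.0, -0.51), and Irs2 lay at the threshold (16.2 against 11.5, -0.48). The genes of the receptor, of 1 of the 2 substrates and of the PI3K subunit were thus lower. With a pseudocount of 1 the Insr call was lost. Foxo3 differed by 0.10 and Akt1, Akt2 and Foxo1 by less. Markers of other cells moved with these libraries: the summed FPKM of 8 adipocyte markers was 28581 in NCD-veh and 20113 in HFD-veh WAT (of which Cfd alone 8163 and 653), that of 7 macrophage markers 643 and 928, that of 6 endothelial markers 152 and 232, and that of 7 lymphocyte markers 10.3 and 2.94. Past 1.4-fold, 1 adipocyte marker was higher and 3 were lower, and 4 macrophage and 3 endothelial markers were higher. No marker of these lists was at 0 in WAT, and their part in the differences was not tested.

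In BAT, Grb14 was higher in HFD-veh mice (14.1 against 24.4 FPKM, log2 difference 0.78), where 9.34% of all genes were higher. Lower were Foxo1 (17.2 against 9.85, -0.80), Irs2 (2.47 against 1.42, -0.75) and Foxo3 (1.11 against 0.723, -0.56), 3 of the 10 genes, against 8.23% of all genes. Foxo1 and Foxo3 were thus both lower in the BAT of HFD-veh mice, although the Foxo3 call was lost with a pseudocount of 1. Foxo4, outside the 10 genes, was not lower there (12.5 and 14.2 FPKM, log2 difference 0.19). The skeletal muscle markers were also lower in that library, as given above, and all 10 of them passed 1.4-fold. Of 6 macrophage markers, 3 were higher and 1 was lower (44.3 against 60.4 FPKM in sum). The part of these markers in the differences was not tested. Insr differed by 0.04 (5.13 and 5.25 FPKM).

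In liver, 9 of the 10 genes passed the filter, Igf1r being too low. Foxo3 (2.49 against 4.78 FPKM, log2 difference 0.92) and Pik3r1 (5.49 against 10.1, 0.87) were higher in HFD-veh mice, against 13.3% of all genes. Irs1 was lower (2.77 against 1.78, -0.61), against 10.5% of all genes, and Irs2 differed by -0.46 (2.90 and 2.09). The Irs1 call was lost with a pseudocount of 1. Insr was level at 10.6 and 11.01 FPKM. Pik3r1 was thus higher in liver and lower in WAT, and Foxo3 was higher in liver and lower in BAT.

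In muscle, 3 of the 10 genes were lower in HFD-veh mice, against 5.52% of all genes, and none was higher, against 7.74%. They were Igf1r (1.89 against 1.09 FPKM, log2 difference -0.73), Foxo3 (2.11 against 1.28, -0.68) and Insr (6.82 against 4.80, -0.50), and Pik3r1 differed by -0.48. The median log2 difference of the 10 genes was -0.22, and that of all genes was 0.03. Irs1 was at 6.16 and 5.83 FPKM. Muscle was the only one of the 4 organs in which both receptor genes passed. Insr also passed in WAT, and Igf1r was under the filter in liver. After the liver share was subtracted from HFD-veh muscle, the 3 genes still passed and Pik3r1 joined them (-0.51). With a pseudocount of 1, 0 of the 10 genes passed.

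**Figure D3:**
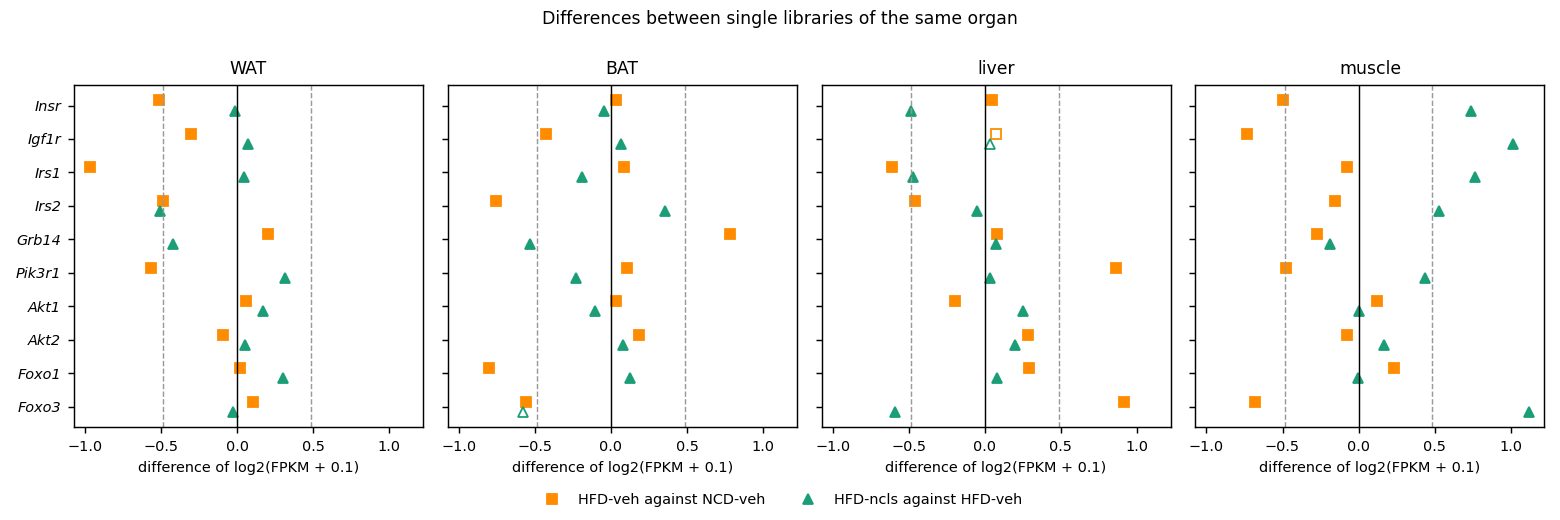
Difference of log2(FPKM + 0.1) for the 10 genes in each organ, orange squares for HFD-veh against NCD-veh and green triangles for HFD-ncls against HFD-veh, 1 library on each side. Dashed lines mark 1.4-fold, and open symbols mark genes under the filter. Both comparisons use the same HFD-veh library. In muscle 5 green triangles lie past the right line, and in each other organ 1 gene that passed the filter lies past the left line.

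The third comparison asked how the genes differed between HFD-ncls and HFD-veh mice. Both this and the diet comparison use the HFD-veh library, so a deviation of that library alone gives opposite signs in both, and the values are given side by side. In WAT, 1 of the 10 genes was lower, against 1.28% of all genes, and none was higher, against 6.39%. It was Irs2, at 16.2, 11.5 and 8.08 FPKM across the 3 groups (log2 difference -0.51 between the last pair). Irs1 (3.70 and 3.82 FPKM) and Insr (13.0 and 12.8) in HFD-ncls were near their HFD-veh levels. Pik3r1 differed by 0.31 (23.5 and 29.3) and Foxo1 by 0.30 (23.3 and 28.7), within the threshold. With a pseudocount of 1 the Irs2 call was lost. The summed macrophage markers were 928 and 1167 FPKM in these libraries, and the adipocyte markers 20113 and 18492.

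In BAT, 9 genes passed the filter and 1 was lower, against 6.28% of all genes, with none higher, against 2.25%. It was Grb14, at 14.1, 24.4 and 16.8 FPKM across the 3 groups (-0.53). The macrophage markers, at 44.3, 60.4 and 39.2 FPKM, had 4 of 6 lower and 1 higher with ncls, all 10 skeletal muscle markers were lower, and their part in the difference was not tested. Irs2 differed by 0.36 (1.42 and 1.85 FPKM), within the threshold. Foxo3, under the filter, was at 1.11, 0.723 and 0.451 FPKM. In liver, 9 genes were compared and 1 was lower, against 8.07% of all genes, with none higher, against 6.88%. It was Foxo3, at 2.49, 4.78 and 3.15 FPKM (-0.59), a call that was lost with a pseudocount of 1. Insr (11.01 and 7.86 FPKM, -0.48) and Irs1 (1.78 and 1.25, -0.47) lay just within the threshold, and Pik3r1 was level at 10.1 and 10.3 FPKM.

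In muscle, by contrast, 5 of the 10 genes had higher levels with ncls. Igf1r was at 1.89, 1.09 and 2.31 FPKM (log2 difference 1.01) and Foxo3 at 2.11, 1.28 and 2.89 (1.12), both past 2-fold, as 1.27% of all muscle genes were. Irs1 was at 6.16, 5.83 and 9.99 FPKM (0.77), Insr at 6.82, 4.80 and 8.07 (0.74) and Irs2 at 2.83, 2.53 and 3.69 (0.53). HFD-ncls was the highest of the 3 muscle libraries for each of these 5 genes, which were called for being above HFD-veh. Against NCD-veh only Irs1 passed 1.4-fold, and the median log2 difference of all genes was 0.08. Between HFD-ncls and HFD-veh, 8.46% of all muscle genes were higher and 5.48% lower, and none of the 10 genes was lower. The median log2 difference was 0.48 for the 10 genes and 0.04 for all genes. Pik3r1 differed by 0.44 (2.55 and 3.49 FPKM), within the threshold. Both receptors and both substrates were thus higher together, while Akt1 (15.7 and 15.8 FPKM), Foxo1 (5.51 and 5.50) and Akt2 (59.5 and 66.8) were level or nearly so and Grb14 differed by -0.19 (6.15 and 5.38). With the liver share subtracted from HFD-veh muscle, 5 genes still passed, and with a pseudocount of 1 the Irs2 call was lost.

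The differences in muscle went with transcript length. The longest annotated transcript was 9355 bases for Insr, 9144 for Irs1, 6915 for Pik3r1 and 6848 for Foxo3, against 5552 for Foxo1, 4544 for Akt2, 4181 for Igf1r, 4024 for Irs2, 2690 for Akt1 and 1986 for Grb14. These lengths come from GENCODE vM1 and only approximate those behind the FPKM values. A gene whose transcript is cut short there would fall in too short a class. Among all muscle genes the median log2 difference of HFD-ncls from HFD-veh was -0.11 for transcripts under 1500 bases, -0.01 up to 3000, 0.09 up to 5000, 0.23 up to 8000 and 0.33 above 8000. The share of genes past 1.4-fold higher was 5.67% in the shortest class and 27.9% of 348 genes in the longest, which holds Insr and Irs1. With the median of the length class subtracted, a step chosen after the data had been seen, Igf1r (0.92) and Foxo3 (0.89) passed, while Insr (0.40), Irs1 (0.43) and Irs2 (0.44) stayed higher but within the threshold. This left 2 of the 10 genes, against 5.82% of all genes treated in the same way. The diet comparison in muscle ran the other way, from 0.10 in the shortest class to -0.23 in the longest, and there Insr moved from -0.50 to -0.27 while Igf1r (-0.75) and Foxo3 (-0.60) still passed. In liver the median of HFD-ncls against HFD-veh ran from 0.10 in the shortest class to -0.27 in the longest, and Foxo3 moved from -0.59 to -0.48, just within the threshold. The liver median also ran with GC content, from -0.28 for transcripts under 42% to 0.23 for those above 54%. In the liver diet comparison it ran the other way, from 0.28 to -0.18. With the median of the GC class subtracted there, Pik3r1 moved from 0.87 to 0.65. It still passed, as did Foxo3 (0.93) and Irs1 (-0.60). The part of length and GC content in the differences was not tested further.

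A direct comparison of HFD-ncls with NCD-veh does not use the HFD-veh libraries. In WAT, 3 of the 10 genes were lower in HFD-ncls, against 10.4% of all genes, and none was higher, against 19.8%. They were Irs2 (16.2 against 8.08 FPKM, log2 difference -0.99), Irs1 (7.34 against 3.82, -0.92) and Insr (18.5 against 12.8, -0.52). With the median of the length class subtracted, Insr (-0.479) stayed lower but within the threshold. In BAT, 2 genes were lower, against 9.12%, and none was higher, against 6.07%. They were Foxo3 (1.11 against 0.451, -1.14) and Foxo1 (17.2 against 10.8, -0.68). In liver, Pik3r1 was higher (5.49 against 10.3, 0.90), against 11.5% of all genes, and Irs1 (2.77 against 1.25, -1.08) and Irs2 (2.90 against 2.01, -0.51) were lower, against 9.46%, with the Irs2 call lost with a pseudocount of 1. In muscle, Irs1 was higher (6.16 against 9.99, 0.69), against 6.39% of all genes, and none was lower, against 2.49%. Irs1 was thus below its NCD-veh level in WAT and liver and above it in muscle, and Insr, Igf1r and Foxo3 in HFD-ncls muscle were within 1.4-fold of NCD-veh.

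Across the 2 comparisons that share HFD-veh, Akt1 and Akt2 passed 1.4-fold in none of 8 organ comparisons, with a widest difference of 1.19-fold and 1.22-fold. Foxo3 passed in 5 of 7, Insr, Irs1 and Irs2 in 3 of 8 each, Igf1r in 2 of 6, Grb14 and Pik3r1 in 2 of 8 each and Foxo1 in 1 of 8. Of all genes tested, 2.25% to 16.3% were higher and 1.28% to 13.0% lower in these 8 organ comparisons. A deviation of 1 HFD-veh library can count in both comparisons of its organ, and this tally was not made for all genes.

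Beyond the 10 genes, 48 other genes of the pathway were counted in the same way, from lists chosen with earlier results of these data known. In muscle, 9 of the 36 that passed the filter had higher levels with ncls (HFD-ncls against HFD-veh) and 1 was lower, with a median log2 difference of 0.20, where 8.46% of all genes were higher and 5.48% lower. In liver 1 of 35 was higher (6.88% of all genes) and 5 were lower (8.07%). In WAT 1 of 45 was higher (6.39% of all genes) and none lower (1.28%), and in BAT 1 of 38 was higher (2.25%) and none lower (6.28%). In the diet comparison, 4 of 45 were higher and 2 lower in WAT (16.3% and 13.0% of all genes), 1 and 2 of 38 in BAT (9.34% and 8.23%), 3 and 1 of 35 in liver (13.3% and 10.5%), and 2 and 2 of 35 in muscle (7.74% and 5.52%), so these counts were near or under those of all genes. By role, the muscle genes that were higher with ncls were 7 of 15 kinases and their effectors, 1 of 6 adaptors and substrates, 1 of 5 PI3K subunits and 0 of 8 inhibitors. Named after their values had been seen, Tbc1d4 and Tbc1d1, AKT substrates that gate the glucose transporter GLUT4, were at 5.97, 3.88 and 6.61 FPKM and 11.9, 7.47 and 12.2 FPKM in muscle, and both were past 1.4-fold in both comparisons. Gsk3b, a kinase that AKT inhibits, was at 10.2, 7.68 and 13.3 FPKM, past 1.4-fold with ncls (0.78) but not with diet (-0.41). After the length class median was subtracted, 5 pathway genes were higher and 1 was lower in muscle with ncls, against 5.82% and 5.74% of all genes. Tbc1d4 (0.53) still passed, while Tbc1d1 (0.48) and Gsk3b (0.44) stayed higher but within the threshold.

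Genes under the control of FOXO factors are a readout of the end of the cascade, although each has other regulators too. The lists of FOXO targets and insulin-induced genes were chosen with earlier results of these data known. Their counts are thus descriptions and not independent evidence on the cascade. Of 14 FOXO target genes, 12 passed the filter in muscle. In muscle of HFD-veh mice 5 were lower and 2 higher than in NCD-veh mice, against 5.52% and 7.74% of all genes. Against HFD-veh, 6 were higher and 2 lower with ncls, where 8.46% of all genes were higher and 5.48% lower, and these counts were also 6 and 2 with the length class median subtracted. Pdk4, which encodes a kinase that inhibits pyruvate dehydrogenase, was at 404, 122 and 415 FPKM. Fbxo32, the muscle ubiquitin ligase atrogin-1, was at 105, 54.0 and 120 FPKM, and Sesn1, a sestrin of the stress response, at 7.21, 4.86 and 9.87. For each of these 3 genes, named for passing 2-fold with ncls, HFD-veh was the lowest of the 3 libraries and HFD-ncls the highest. The 2 genes in the other direction were G6pc (0, 2.68 and 0.0349 FPKM) and Pck1 (4.89, 12.6 and 5.89). The liver share accounts for 1.67 FPKM of G6pc and 4.82 FPKM of Pck1 in HFD-veh muscle, which leaves 1.00 and 7.83 FPKM. Pck1 was also at 605 to 694 FPKM in BAT and 141 to 836 FPKM in WAT.

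In WAT, 4 FOXO targets of 11 were lower in HFD-veh than in NCD-veh mice and 1 was higher, against 13.0% and 16.3% of all genes. Pck1, which encodes the cytosolic phosphoenolpyruvate carboxykinase, was at 836, 141 and 146 FPKM. In BAT 5 of 11 were lower and none higher, against 8.23% and 9.34% of all genes, among them Klf15 (11.4, 3.89 and 3.86 FPKM), a transcription factor of amino acid and glucose metabolism, and Gadd45a (5.05, 1.92 and 2.20), a stress response gene. In liver 3 of 12 were higher and 2 lower with HFD, against 13.3% and 10.5% of all genes. Igfbp1, an insulin-suppressed gene that encodes a binding protein of insulin-like growth factors, was at 30.7, 72.7 and 162 FPKM, past 2-fold in both comparisons. Gadd45a was at 2.15, 7.56 and 3.94 FPKM in liver. Bcl6, a transcriptional repressor, was at 13.3, 14.3 and 2.39 FPKM, a log2 difference of -2.53 between HFD-ncls and HFD-veh. Between these groups, 1 FOXO target of 12 was higher and 3 lower in liver (6.88% and 8.07% of all genes), 1 of 11 higher and none lower in WAT (6.39% and 1.28%), and none of 10 higher and 2 lower in BAT (2.25% and 6.28%).

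Of 5 insulin-induced genes, 3 passed the filter in liver, and all 3, genes of lipid synthesis, were higher in HFD-veh than in NCD-veh mice, as 13.3% of all genes were. Srebf1, the master factor of fatty acid synthesis, was at 13.3, 69.9 and 95.0 FPKM, Fasn, fatty acid synthase, at 11.3, 65.2 and 162, and Scd1, a fatty acid desaturase, at 561, 1271 and 1333. Fasn alone passed 1.4-fold between HFD-ncls and HFD-veh (1.31), where 6.88% of all genes were higher. Liver Igfbp1, which insulin lowers, and these genes, which insulin raises, thus had their highest levels in the same HFD-ncls library. In BAT, Fasn (705, 348 and 171 FPKM) and Scd1 (4265, 1855 and 1020) were lowest in HFD-ncls mice, and both passed 1.4-fold in each comparison, 2 of 5 genes, where 8.23% (diet) and 6.28% (ncls) of all genes were lower. In WAT 1 of 5 insulin-induced genes was lower with HFD, against 13.0% of all genes, and 1 was higher with ncls, against 6.39%. In muscle, Scd1 was at 18.5, 43.2 and 22.7 FPKM, with 7.20 FPKM of the HFD-veh value accounted for by the liver share, and Pnpla3, Fasn and Scd1, 3 of the 5 insulin-induced genes, had higher levels in HFD-veh than in both other groups, past 1.4-fold, where 7.74% of all genes were higher with HFD and 5.48% lower with ncls. The summed adipocyte markers in muscle were 348, 395 and 387 FPKM, and 5 of 8 of them were higher in HFD-veh than in NCD-veh and 5 were lower with ncls. Their part in the levels of Fasn and Scd1 in muscle was not tested.

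**Figure D4:**
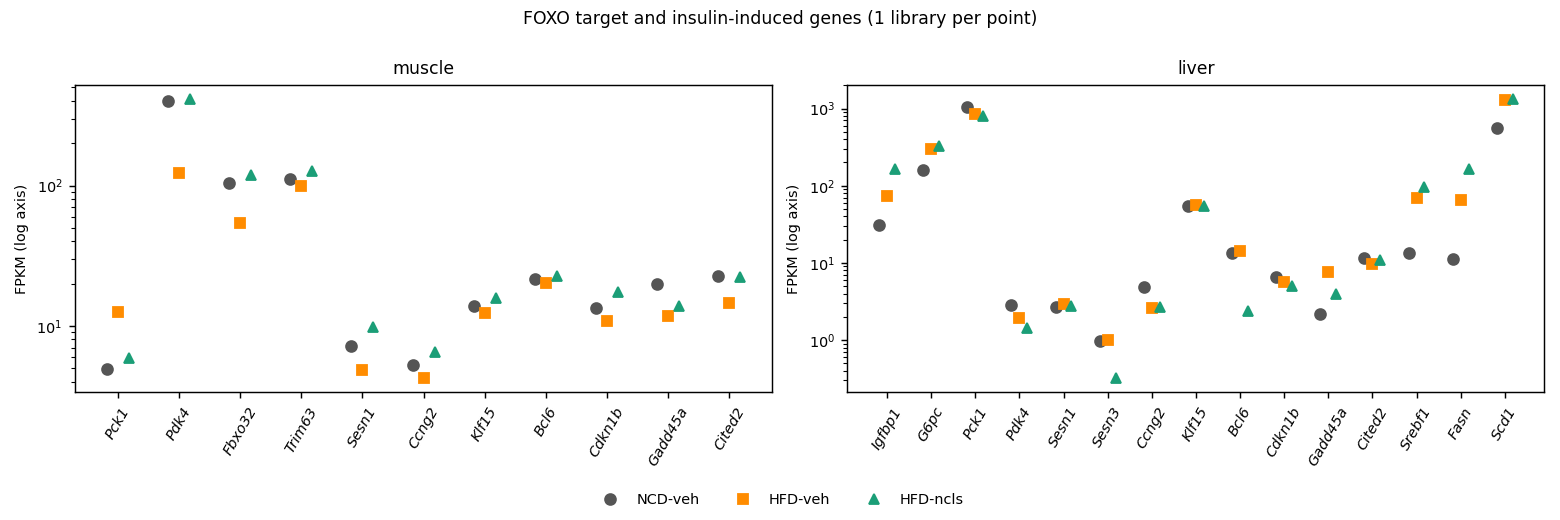
FPKM (log axis) of the FOXO target genes that passed the filter in muscle (left, without G6pc, which was listed at 0 in NCD-veh) and of the FOXO target and insulin-induced genes that passed it in liver (right), 1 point per library, with grey circles for NCD-veh, orange squares for HFD-veh and green triangles for HFD-ncls. In HFD-veh muscle Pdk4 is at 122 FPKM against 404 and 415, and Pck1 at 12.6 FPKM against 4.89 and 5.89. In liver Igfbp1, Srebf1 and Fasn are highest in HFD-ncls.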

How the data were processed

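RNA-seq libraries, 1 for each of 4 organs and 3 groups, were grouped by their labels. The authors aligned with TopHat 2.0.11 (mm9), used Cufflinks (version not given in the sources used here) for RefSeq genes and deposited FPKM values. FPKM is relative to each library's total, so a few abundant transcripts can shift all other genes of an organ. FPKM values are not counts, so no count test was run, and depths were estimated from the steps of the lowest values.

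The members and gene lists were chosen with earlier results of these data known. Single libraries were compared on log2(FPKM + 0.1) with a filter of 1 FPKM in either library and a threshold of 1.4-fold, without a test. Organs were compared with limma 3.58.1 in R 4.3.3 (organ and group as additive terms, trend, Benjamini-Hochberg adjustment), tested on simulated data. Other steps used Python 3.11.15 with numpy 2.4.6, scipy 1.17.1, pandas 2.3.3 and matplotlib 3.10.9.

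The share of another organ's RNA was the median, over genes enriched in the source organ (mean of at least 10 FPKM and 20-fold the median of the other organs' libraries), of the excess over other libraries of the receiving organ divided by the level in the source library. Transcript lengths came from GENCODE vM1, which is not the annotation the authors used. Marker lists covered liver, skeletal muscle, adipocytes, brown adipocytes, macrophages, endothelium, lymphocytes and red blood cells. Besides the 10 genes, the text names FOXO targets and insulin-induced genes past 2-fold with at least 5 FPKM in either library, and for each of the 10 genes the 2 genes of highest Pearson r over 12 libraries and the 1 of highest r after organ means were subtracted. A gene of the insulin-induced list is not reported here and was left out of its counts. Genes named otherwise were chosen after their values had been seen. Alternatives changed the pseudocount, filter, scaling, threshold and group term, subtracted the other organ's RNA and left out each library in turn. Subtraction of length and GC class medians was added after the data had been seen.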

Additional observations from a re-analysis of the deposited data

Results flagged for a closer look

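In 3 pairs of organs a gene passed 1.4-fold in opposite directions in HFD-veh against NCD-veh mice. The log2 difference of Pik3r1 in liver was 1.43 above that in WAT. That of Foxo3 in liver was 1.47 above that in BAT and 1.60 above that in muscle. In HFD-ncls against HFD-veh mice, the log2 difference of Irs2 in muscle was 1.04 above that in WAT, and that of Foxo3 in muscle was 1.71 above that in liver. With 1 library per organ and group, none of these differences between organs was tested, and the Foxo3 values in the 2 comparisons share the HFD-veh libraries.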

How the results depend on the processing

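Of 116 differences of the 10 genes between libraries of 1 organ, 30 passed 1.4-fold, and none of these changed sign under any alternative. At 2-fold, 0 genes remained for HFD-veh against NCD-veh in each organ and for HFD-ncls against HFD-veh in WAT, BAT and liver, 2 remained in muscle, and for HFD-ncls against NCD-veh 0 remained in WAT and muscle and 1 each in BAT and liver. With a pseudocount of 1, 0 genes passed for HFD-veh against NCD-veh in muscle and for HFD-ncls against HFD-veh in WAT and liver. With a pseudocount of 0.01 or rescaling, 3 passed for HFD-ncls against HFD-veh in liver. Without the filter 2 passed in BAT. With length class medians subtracted, 0 passed in liver and 2 in muscle for HFD-ncls against HFD-veh, and with GC class medians 2 passed in liver. For HFD-ncls against NCD-veh in muscle, 2 passed after rescaling and after either class subtraction. The causes were not tested. Rescaling reversed 5 organ differences, to 0.21 for Insr (liver minus WAT), 0.0077 for Igf1r (BAT minus WAT), 0.59 for Grb14 (BAT minus WAT), 0.58 for Akt2 (BAT minus WAT) and 0.37 for Akt2 (muscle minus WAT). Fewer genes then differed between liver and WAT, 6 against 9. Leaving out each library in turn gave 10 genes differing between organs every time, 7 to 8 for BAT against WAT, 7 to 9 for liver against WAT, 8 to 9 for muscle against WAT, 5 to 6 for liver against BAT, 5 to 8 for muscle against BAT and 7 to 9 for muscle against liver. No paired analysis was possible because, within an organ, each group has 1 library and the labels carry no replicate numbers. A group effect across organs, with organ as a block, was not reported. Depth limits Igf1r in liver and Foxo3 in BAT most.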

Other observations

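The genes whose levels ran most like those of the 10 genes were found by Pearson r of log2(FPKM + 0.1) over the 12 libraries, among 10111 or 10112 genes. These values describe 4 organs with 3 libraries each and mostly reflect organ differences, and carry no p. Pik3r1 ran most closely with Pik3cb (r = 0.993), which encodes the catalytic p110β subunit of PI3K, and with Gm14420 (0.990). Igf1r ran with Clasp2 (0.988), a microtubule-binding protein gene, and with Tbc1d4 (0.988), the AKT substrate gene. Akt2 ran with Gdpd5 (0.994) and Plcd1 (0.987), Akt1 with Gnai2 (0.994) and Sirpa (0.992), and Insr with Erbb2ip (0.979) and Prpf6 (0.975). Irs1 ran with 2900097C17Rik (0.958) and Klhl12 (0.956), Irs2 with Wnt2b (0.985) and Cd209b (0.977), and Grb14 with Slc25a17 (0.964) and Pkp4 (0.964). Foxo1 ran with Sh3gl1 (0.985) and Jkamp (0.985), and Foxo3 with Ube4a (0.987) and Trappc11 (0.980).

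After the organ means were subtracted, which leaves the differences between groups, the closest genes were others. Foxo1 then ran with Glul (r = 0.973), glutamine synthetase, Akt1 with Maz (0.974), Igf1r with Naca (0.958), Irs2 with Abtb1 (0.949), Insr with Phf3 (0.947), Akt2 with Add1 (0.931), Foxo3 with Pcyt1a (0.930), Irs1 with Thrap3 (0.925), Pik3r1 with Oxnad1 (0.925) and Grb14 with Capn2 (0.774), over 12 libraries and 3562 or 3563 genes. The other 6 genes with the CACGTG and TGTTTTG pair in the 250 bases before a start were 1110036E04Rik, 1700019P21Rik, Fam214a, Klf11, Pcbp1 and Pyroxd1.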
